A study of Mus musculus with 43 samples.

Results

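The genes described here are 7 matrix metalloproteinases (Mmp3, Mmp8, Mmp9, Mmp10, Mmp12, Mmp13 and Mmp14), the ADAMTS proteases Adamts1 and Adamts4, and Timp1, which encodes a tissue inhibitor of metalloproteinases. They were chosen by name with earlier results of these data known, as were the lists of other genes below. The shares over all genes printed beside their counts are therefore no test of an independently chosen set. All 10 were found among the 23256 genes of the normalised count table. All 10 passed the filter on low values, which kept the 19170 genes that reached 10 in 4 or more libraries. Mmp10 passed through 13 libraries that were all from acutely exposed skin. Mmp8 passed through 11 libraries after acute and 10 after chronic UVB, with 0 from unexposed skin.

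The series holds 43 RNA-seq libraries of polyadenylated RNA, made from the back skin of female mice 10 to 13 weeks old of the strains iNZM, NZM and WT. In the chronic regimen mice received UVB at 100 mJ/cm2 daily for 5 days, in the acute regimen they received 300 mJ/cm2 on 1 occasion, and unexposed mice of each strain were the controls. Skin was taken 24 hours after the last exposure. UVB is the medium-wave part of ultraviolet light, which causes sunburn. Each of the 9 groups held 5 libraries, except unexposed iNZM and unexposed WT with 4 each. NZM refers to NZM2328, the lupus-prone line in the title of the series. What iNZM and WT stand for is not defined in the labels; in lupus research iNZM denotes NZM2328 mice lacking the receptor for type I interferon. No further allele or agent is given in the labels. They do not say that libraries came from separate animals, so the p-values below measure the spread between these libraries, which may be technical in part.

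Matrix metalloproteinases are zinc enzymes that cut collagens, proteoglycans and other proteins outside the cell. Most are secreted as inactive precursors, and TIMP proteins block the active enzymes. In skin, keratinocytes, fibroblasts and infiltrating leukocytes make them after wounding and ultraviolet exposure, and ADAMTS proteases cut large proteoglycans such as versican and aggrecan.

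In the GENCODE vM21 annotation of build GRCm38, 5 of the genes lay in a cluster of 10 Mmp genes on chromosome 9, in the order Mmp13, Mmp12, Mmp1b, Mmp3, Mmp1a, Mmp10, Mmp8, Mmp27, Mmp20 and Mmp7. Mmp9 lay on chromosome 2, Mmp14 on chromosome 14, Timp1 on chromosome X, Adamts1 on chromosome 16 and Adamts4 on chromosome 1. Promoters were read from RefSeq, build GRCm38.p6, for the 8 genes that matched, as 250 bases before to 50 bases after the start. The AP-1 element, TGAGTCA or its reverse complement TGACTCA, was present in 4 of these 8 genes, against 5.2% of 32851 promoters in the table. TATAAA, searched on both strands, was present in 6 of the 8, against 13.6% of all promoters. The 8 genes had 9 promoters, and a gene was counted if any of its promoters matched, while the shares are per promoter. These matches are descriptions of letters and not of bound sites. The 4 genes with the AP-1 element belonged to the chromosome 9 cluster, and Mmp8, the fifth gene of the cluster described here, had no such match. The 100 bases before the start of each are shown because they hold the element (in capitals), all on the plus strand. For Mmp12 the second of its listed starts is shown, since the promoter of the first held no AP-1 match.
Mmp3, chr9:7445722-7445821: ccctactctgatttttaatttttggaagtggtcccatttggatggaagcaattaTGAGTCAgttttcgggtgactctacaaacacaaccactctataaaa
Mmp10, chr9:7502242-7502341: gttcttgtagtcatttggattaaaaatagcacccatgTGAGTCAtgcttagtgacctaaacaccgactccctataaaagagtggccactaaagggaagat
Mmp12, chr9:7347274-7347373: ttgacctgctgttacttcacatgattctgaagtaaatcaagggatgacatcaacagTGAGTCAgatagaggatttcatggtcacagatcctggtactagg
Mmp13, chr9:7272414-7272513: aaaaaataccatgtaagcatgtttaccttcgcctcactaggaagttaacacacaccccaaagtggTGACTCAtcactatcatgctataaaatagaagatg
The element began at position -46 in Mmp3, -63 in Mmp10, -44 in Mmp12 and -35 in Mmp13, counted from -1 as the base before the start. As the values below show, these 4 genes differed over the groups: Mmp10 was called higher after acute UVB in all 3 strains, and Mmp12 in none. The part of the element in these values was not tested.

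Libraries held 18.49 to 37.76 M reads. The keratinocyte genes fixed as markers of skin summed to between 139345 and 1985741 normalised reads, so every library held them. Ifnar1, which encodes part of the receptor for type I interferon, ranged from 304 to 579 normalised reads in 14 iNZM libraries, against 716 to 1148 in 15 NZM and 758 to 1378 in 14 WT libraries. A hair follicle score was above 5 in 9 libraries, which were acute NZM 5, acute iNZM 6 and 49, chronic NZM 17, 55 and 56, and chronic iNZM 22, 24 and 25. Whether hair growth differed before exposure was not tested. In whole skin, fewer cells of a type and less RNA per cell cannot be told apart.

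After acute UVB, Adamts4, Timp1, Mmp10 and Mmp8 were higher in all 3 strains, and limma called none of the 10 genes lower in any. In NZM, limma called 6 of the 10 higher and 0 lower, against 10.6% of all genes tested called higher and 10.7% called lower. In iNZM it called 5 higher and 0 lower, against 12.8% and 12.4% of all genes, while edgeR and DESeq2 called 7 each, with Mmp3 and Mmp13 added. In WT it called 5 higher and 0 lower, against 10.4% and 11.3% of all genes. The median log2 difference of the 10 genes was 2.80 in NZM, 1.68 in iNZM and 2.34 in WT, while the median over all genes tested lay between -0.01 and 0.04 in every comparison.

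After chronic UVB fewer of them were higher than in unexposed skin, and Mmp9 was lower in all 3 strains. In NZM, 3 of the 10 were called higher and 1 lower, against 9.2% and 9.78% of all genes. Without the 9 libraries with a hair follicle score above 5, 2 were called, Mmp8 and Adamts4. In iNZM, 0 were higher and 3 lower, against 13.1% and 15.7% of all genes. In WT, 1 was higher and 1 lower, against 18.4% and 16.8% of all genes, and leaving out 1 library gave 1 to 3 called in all. EdgeR called 3 in WT (Mmp8 and Mmp13 higher, Mmp9 lower) and DESeq2 4, with Adamts4 higher as well.

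**Figure D1:**
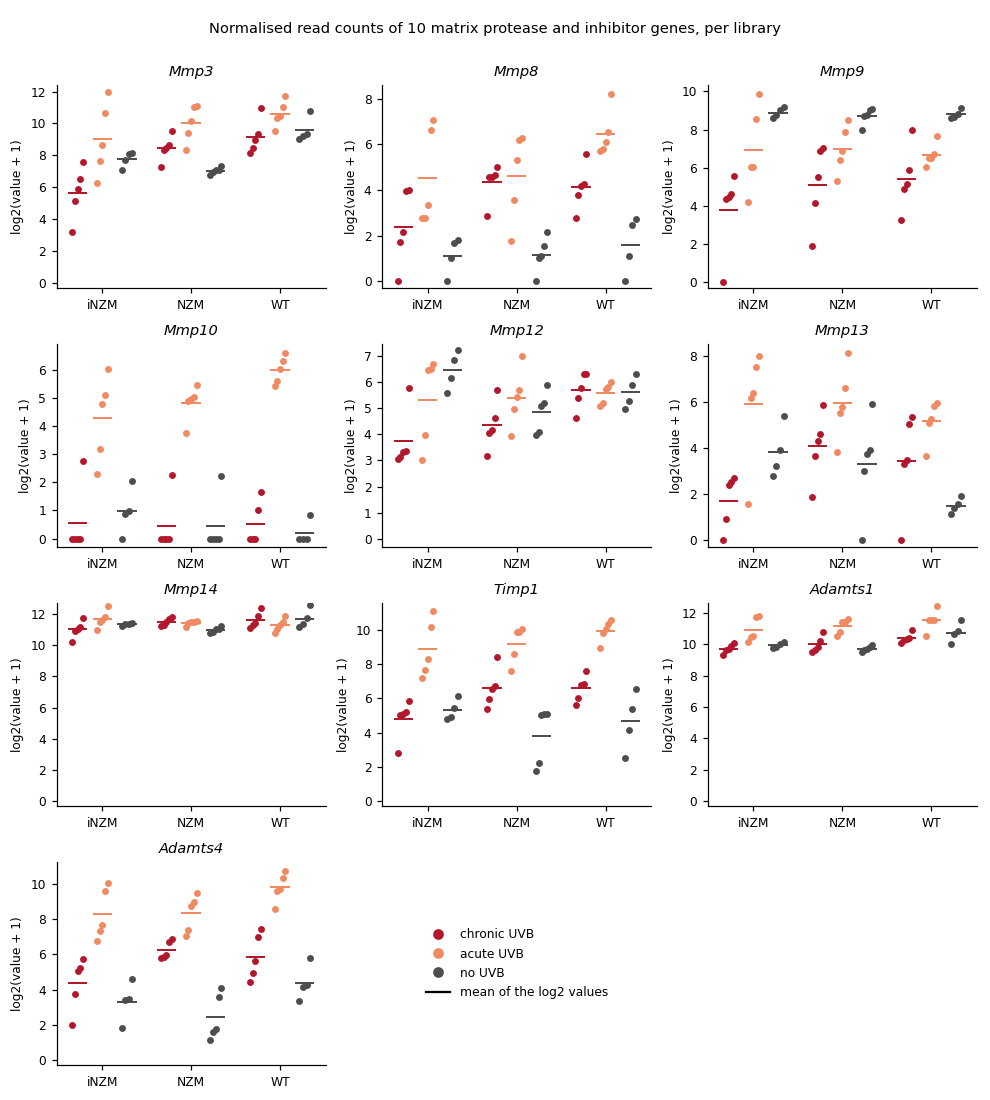
Normalised read counts on a log2(value + 1) axis for each of the 10 genes, with 1 point per library, grouped by strain (chronic, acute and no UVB from left to right) and a bar at the mean of the log2 values. Acute libraries of Timp1 and Adamts4 lie above the unexposed libraries in each strain, and Mmp9 after chronic UVB lies below them.

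Mmp10 encodes stromelysin 2, which cuts proteoglycans and fibronectin and activates other metalloproteinases, and in wounds it is known from keratinocytes at the migrating edge. It was nearly silent in unexposed skin and present in every acutely exposed library. After acute UVB, WT libraries held 42.1, 63.3, 77.6, 46.9 and 94.6 normalised reads, against 0, 0, 0 and 0.795 in unexposed WT. In NZM the acute libraries held 30.4, 42.5, 31.4, 28.3 and 12.5, against 3.67 in 1 unexposed library and 0 in the other 4. In iNZM the acute libraries held 3.85, 26.6, 8.08, 33.0 and 63.9, against 0, 0.972, 0.825 and 3.13 in unexposed skin. The groups did not overlap in any strain. The log2 difference on the log2(value + 1) scale was 5.77 ± 0.64 (SE, limma adjusted p = 2.4e-08) in WT, 4.37 ± 0.60 (adjusted p = 2.31e-06) in NZM and 3.30 ± 0.64 (adjusted p = 0.000235) in iNZM. With a pseudocount of 8 in place of 1, these became 3.10, 2.04 and 1.65, all still called. Mmp10 passed the filter only through acute libraries, where it was high. These p-values, and those of chronic against acute UVB, are therefore not independent of the filter. The calls against unexposed skin also held with no filter. Since unexposed groups held few reads, the ratio was also taken on the reads: 302 reads after acute UVB against 1 in unexposed WT gave 270 (exact 95% interval 48.0 to 10700), and 180 against 3 in NZM gave 44.1 (14.9 to 216). These intervals cover counting error only. Keratinocyte markers, all 8 present, summed to less after acute UVB with no overlap in any strain, at 139345 to 290456 in WT, 280961 to 509353 in NZM and 175782 to 451591 in iNZM, against 325216 to 606886, 549950 to 956749 and 528954 to 726719 in unexposed WT, NZM and iNZM. Of the 8, limma called 5 lower and 1 higher in WT, 4 lower in NZM and 4 lower in iNZM. Over all genes, limma called 11.3% lower and 10.4% higher in WT, 10.7% lower in NZM and 12.4% lower in iNZM. The part of the keratinocyte genes in the Mmp10 values was not tested.

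After chronic UVB Mmp10 had few or no reads, as in unexposed skin. It was listed at 0 in 4 of 5 chronic NZM, 4 of 5 chronic iNZM and 3 of 5 chronic WT libraries. Chronic UVB differed from no UVB by 0.01 ± 0.60 in NZM (adjusted p = 0.995), -0.42 ± 0.64 in iNZM (adjusted p = 0.649) and 0.32 ± 0.64 in WT (adjusted p = 0.733). Between 3 and 5 reads in a group stand behind those chronic values, so a small change would not be detectable at this depth. Against acute UVB, chronic UVB gave -5.45 ± 0.60 in WT (adjusted p = 8.57e-09), -4.36 ± 0.60 in NZM (adjusted p = 3.18e-05) and -3.72 ± 0.60 in iNZM (adjusted p = 0.000163, and 0.11 when only the compared groups were fitted).

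Mmp3 encodes stromelysin 1, which cuts a similar range of matrix proteins and is known mainly from fibroblasts. In NZM it was higher after acute UVB. The acute NZM libraries held 2165, 1120, 2131, 682 and 324 normalised reads, against 126, 110, 158, 134 and 133 in unexposed NZM. These groups did not overlap, and the log2 difference was 2.96 ± 0.74 (adjusted p = 0.00329). In WT the acute libraries held 1309, 2049, 1409, 3439 and 742, against 525, 651, 600 and 1739 in unexposed WT, which overlapped (1.03 ± 0.78, adjusted p = 0.396). In iNZM the acute libraries spread from 76.1 to 4006, around unexposed values of 135 to 286 (1.27 ± 0.78, adjusted p = 0.232), a difference that edgeR (adjusted p = 0.0206) and DESeq2 (0.00327) called. The summed monocyte and macrophage markers ranged from 4950 to 40289 in acute NZM libraries, against 4814 to 7529 in unexposed NZM, with all 12 genes present. Fibroblast markers ranged from 47224 to 92049, against 15961 to 53307. Their part in the difference was not tested.

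In chronic iNZM skin Mmp3 had the lowest mean of the 9 groups. The 5 libraries held 34.1, 90.6, 189, 8.32 and 58.4, against 277, 135, 207 and 286 in unexposed iNZM, with library 23 inside the unexposed range. The log2 difference was -2.10 ± 0.78 (adjusted p = 0.0402). The call was lost in 12 of 20 alternatives. These were the fits without chronic library 24 (adjusted p = 0.164), 57 (0.0676) or 25 (0.053), without unexposed library 37 (0.089), 39 (0.0735) or 40 (0.0962), a pseudocount of 8 (0.0541), only the compared groups (0.0847), edgeR (0.117), DESeq2 (0.0762), no libraries with a hair follicle score above 5 (0.179), and a covariate for that score, where the difference was -0.58 (0.609). Fibroblast markers summed to 4693 to 59618 in chronic iNZM libraries, against 54436 to 107008 in unexposed iNZM, and monocyte and macrophage markers to 859 to 6727, against 10029 to 30590. What these cells contributed was not tested.

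Mmp8 encodes neutrophil collagenase, stored in neutrophil granules and able to cut fibrillar collagen. It was higher after acute UVB in all 3 strains. Acute WT libraries held 91.1, 52.0, 67.9, 291 and 55.1 normalised reads, against 1.16, 0, 4.58 and 5.56 in unexposed WT. Acute NZM libraries held 72.9, 38.5, 75.5, 10.9 and 2.34, against 1.17, 1.00, 3.47, 0 and 1.94 in unexposed NZM. Acute iNZM libraries held 5.78, 5.90, 9.09, 134 and 98.3, against 2.18, 0, 2.47 and 1.04 in unexposed iNZM. Only acute NZM library 5 overlapped with the unexposed libraries of its strain. The log2 differences were 4.90 ± 0.90 in WT (adjusted p = 9.06e-05), 3.45 ± 0.85 in NZM (adjusted p = 0.00303) and 3.40 ± 0.90 in iNZM (adjusted p = 0.00515, and 0.0534 when only the compared groups were fitted). A pseudocount of 8 gave 3.20, 1.94 and 1.88, all called, and DESeq2 gave 5.14 in iNZM. Mmp8 passed the filter only through exposed libraries, so its p-values against unexposed skin are not independent of the filter.

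Mmp8 was also higher after chronic UVB in NZM and in WT. Chronic NZM libraries held 22.7, 6.27, 31.2, 22.4 and 24.0, all above the unexposed ones (3.16 ± 0.85, adjusted p = 0.00993, and 1.56 with a pseudocount of 8). Chronic WT libraries held 17.0, 5.89, 46.8, 18.2 and 12.8, also above the unexposed ones (2.54 ± 0.90, adjusted p = 0.0264). The WT call was lost without chronic library 28 (adjusted p = 0.0704), unexposed library 41 (0.0647) or unexposed library 43 (0.11), and with a pseudocount of 8, where the difference was 1.26 (0.09). Chronic iNZM gave 1.24 ± 0.90 (adjusted p = 0.301). Of the 12 neutrophil markers, 11 were in the table. Ly6g, which defines the type in mice, was at 0 in 35 of 43 libraries and at most 11, Ngp was at 0 in 29 and Elane in 21. The summed list was 654 to 3873 in acute WT libraries, against 1771 to 2126 in unexposed WT, with Il1r2, Csf3r and Cxcr2 as its most abundant genes. Of 7 neutrophil genes tested after acute UVB, 5 rose in NZM (median log2 difference 2.67), 3 in iNZM (median 1.12) and 3 in WT (median 2.45), and 1, Il1r2, fell in each. Over all genes, 10.6% were called higher in NZM, 12.8% in iNZM and 10.4% in WT, and 10.7%, 12.4% and 11.3% lower. The part of the neutrophil genes in the Mmp8 values was not tested.

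Mmp13 encodes the main interstitial collagenase of mice. In WT it was higher after acute UVB. Acute WT libraries held 11.7, 37.3, 55.3, 32.6 and 60.7 normalised reads, against 1.16, 1.98, 2.75 and 1.59 in unexposed WT, with no overlap (3.66 ± 1.08, adjusted p = 0.0113, and 2.15 with a pseudocount of 8). In NZM the acute libraries spread from 13.3 to 272, against 0 to 58.2 in unexposed NZM (2.65 ± 1.01, adjusted p = 0.0567). In iNZM the acute libraries spread from 1.93 to 254, against 5.83 to 40.4 (2.10 ± 1.08, adjusted p = 0.148), which edgeR (adjusted p = 0.0384) and DESeq2 (0.014) called. The top of the unexposed NZM range was library 35 at 58.2, and the other 4 held 0 to 13.9. After chronic UVB limma called Mmp13 in no strain, while edgeR (adjusted p = 0.0365) and DESeq2 (0.00792) called it higher in WT and DESeq2 called it lower in iNZM (0.0451). In iNZM all 5 chronic libraries, at 0 to 5.55, lay below the unexposed ones, with a difference of -2.13 ± 1.08 (adjusted p = 0.131).

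Mmp9 encodes gelatinase B, which cuts denatured collagen and the collagen of basement membranes. The mean level of Mmp9 was highest without UVB and lowest after chronic UVB in each strain. In iNZM the chronic libraries held 0, 19.7, 45.5, 20.8 and 23.5 normalised reads, against 388, 429, 518 and 577 in unexposed iNZM. In NZM they held 128, 2.69, 44.6, 118 and 16.6, against 429, 542, 514, 255 and 416. In WT they held 57.9, 33.8, 253, 28.5 and 8.56, against 447, 550, 383 and 404. No chronic library reached an unexposed library of its strain. Mmp9 fell in each strain, with log2 differences of -5.09 ± 0.97 in iNZM (adjusted p = 0.000382), -3.62 ± 0.92 in NZM (adjusted p = 0.00647) and -3.36 ± 0.97 in WT (adjusted p = 0.00701). In NZM the call was lost with a covariate for the hair follicle score (-2.46, adjusted p = 0.0702) and without the libraries above a score of 5 (-2.45, adjusted p = 0.157).

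After acute UVB the mean of Mmp9 lay between these levels. Its means after acute UVB were 287 ± 378 in iNZM, 166 ± 130 in NZM and 110 ± 53.3 in WT (SD, n = 5 each), against 478 ± 85.4 (n = 4), 431 ± 112 (n = 5) and 446 ± 74.2 (n = 4) in unexposed skin of iNZM, NZM and WT. The differences were -1.95 ± 0.97, -1.73 ± 0.92 and -2.11 ± 0.97 in the same order of strains, with adjusted p of 0.137, 0.186 and 0.124. In WT the acute libraries, at 63.6 to 202, all lay below the unexposed ones, and in iNZM library 10 lay above them at 913. The neutrophil marker sum was also lower after chronic UVB, at 259 to 569 in iNZM, 384 to 1324 in NZM and 315 to 1021 in WT, against 1774 to 2124, 1757 to 2227 and 1771 to 2126 in unexposed skin. That sum was carried by a few genes that did not move alike. Il1r2, the decoy receptor for interleukin 1, fell in all 3 strains (-2.68 in iNZM, -2.36 in NZM and -3.09 in WT), while in NZM 1 of 7 tested genes rose (Csf3r, the receptor for G-CSF, 3.30) and in WT 2 rose (Cxcr2, a neutrophil chemokine receptor, 4.15, and Stfa2l1, 2.26). In iNZM Csf3r fell as well (-2.60). Over all genes, 9.2% were called higher in NZM and 18.4% in WT, and 15.7% lower in iNZM. Skeletal muscle markers, all 6 present in every library, summed to 207038 to 258625 in chronic WT libraries, against 696285 to 1715582 in unexposed WT. The muscle ranges overlapped in NZM, at 81780 to 587996 against 575628 to 1298844, and in iNZM, at 69278 to 793079 against 649355 to 894500. Limma called 5 of the 6 muscle genes lower in NZM, 4 in iNZM and 4 in WT, against 9.78%, 15.7% and 16.8% of all genes. The median log2 differences of the muscle genes were -1.83, -1.70 and -2.08. The part of the neutrophil and muscle genes in the Mmp9 values was not tested.

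Mmp12 encodes macrophage elastase. In chronic iNZM skin it was lower than without UVB. The chronic libraries held 8.91, 9.29, 53.3, 7.28 and 7.84 normalised reads, against 69.7, 46.7, 114 and 149 in unexposed iNZM. Library 23 was the 1 chronic library inside the unexposed range. Mmp12 fell, with a difference of -2.72 ± 0.65 (adjusted p = 0.00274), and with a covariate for the hair follicle score the difference was -1.43 (adjusted p = 0.0707). Limma called Mmp12 in no other UVB comparison, and DESeq2 also called it lower after chronic than after acute UVB in iNZM (adjusted p = 0.0296). Its acute differences were 0.56 ± 0.61 in NZM, -1.14 ± 0.65 in iNZM and -0.05 ± 0.65 in WT, with adjusted p of 0.56, 0.193 and 0.973. The annotated exons of Mmp12 share bases with Mmp1b on the other strand, and the strand setting of the authors' counting is not given in the sources used here, so reads of the pair could be mixed. The monocyte and macrophage sums given for Mmp3 in chronic iNZM lay below all unexposed iNZM libraries as well.

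Mmp14 encodes a membrane-anchored metalloproteinase that cuts collagen at the cell surface and activates pro-MMP2. It was the steadiest of the 10 genes, with 9 group means that spanned 0.73 on the log2 scale. Means were 2955 ± 478 after chronic UVB, 2731 ± 270 after acute UVB and 2033 ± 261 without UVB in NZM (SD, n = 5 each). The difference in NZM was 0.53 ± 0.25 for chronic UVB (adjusted p = 0.134) and 0.43 ± 0.25 for acute UVB (adjusted p = 0.242). In WT and iNZM the differences from unexposed skin lay between -0.42 and 0.32, and limma called none of them. Per kilobase of annotated exon, Mmp14 had the highest level of the 10 genes in unexposed skin, at 438 normalised reads in iNZM, 341 in NZM and 607 in WT.

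Adamts4 encodes an aggrecanase that cuts aggrecan and versican. It had the largest log2 difference of the 10 genes after acute UVB in NZM and in iNZM. Acute NZM libraries held 435, 728, 497, 134 and 166 normalised reads, against 2.33, 2.01, 16.2, 1.22 and 10.7 in unexposed NZM. Acute iNZM libraries held 106, 160, 200, 1073 and 793, against 9.81, 9.72, 2.47 and 22.9 in unexposed iNZM. Acute WT libraries held 1327, 854, 773, 1742 and 388, against 9.29, 17.8, 54.9 and 16.7 in unexposed WT. The groups did not overlap in any strain, and the ratios of the means were 60.5 in NZM, 41.5 in iNZM and 41.2 in WT. The log2 differences were 5.92 ± 0.71 in NZM (adjusted p = 2.25e-07), 4.98 ± 0.76 in iNZM (adjusted p = 9.49e-06) and 5.43 ± 0.76 in WT (adjusted p = 1.31e-06).

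Adamts4 was also higher after chronic UVB in NZM. Chronic NZM libraries held 57.7, 104, 54.6, 116 and 61.1, against at most 16.2 without UVB, a log2 difference of 3.82 ± 0.71 (adjusted p = 0.000338). Chronic WT gave 1.49 ± 0.76 (adjusted p = 0.122, and 0.0451 by DESeq2) and chronic iNZM 1.04 ± 0.76 (adjusted p = 0.305), with ranges that overlapped those of unexposed skin.

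Adamts1 encodes a versican-cutting protease with antiangiogenic activity. It rose after acute UVB by 1.43 ± 0.30 in NZM (adjusted p = 0.000632), where the acute libraries held 3079, 2736, 2723, 1440 and 1725 normalised reads, against 808, 970, 898, 731 and 784 in unexposed NZM. In iNZM the acute libraries held 1110, 1453, 1380, 3492 and 3392, against 1030, 911, 1104 and 846 in unexposed iNZM. The groups did not overlap, although acute library 6 came within a few reads of the highest unexposed one. The iNZM difference was 0.99 ± 0.32 (adjusted p = 0.0202), and the call was lost without acute library 9 (0.0703), acute library 10 (0.062) or unexposed library 40 (0.06), and when only the compared groups were fitted (0.0887). In WT the difference was 0.79 ± 0.32 (adjusted p = 0.0732). Chronic UVB changed Adamts1 in no strain by the test, with differences from -0.35 to 0.27.

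Timp1, the inhibitor of the set, rose after acute UVB in all 3 strains. Acute NZM libraries held 1076, 945, 966, 394 and 190 normalised reads, against 2.33, 31.1, 32.4, 3.67 and 33.0 in unexposed NZM. Acute iNZM libraries held 148, 204, 312, 1145 and 2207, against 70.8, 26.3, 42.9 and 29.2 in unexposed iNZM. Acute WT libraries held 1056, 900, 1335, 1569 and 504, against 4.64, 16.8, 93.4 and 41.3 in unexposed WT. Every acute library lay above every unexposed library of its strain. The log2 differences were 5.39 ± 0.75 in NZM (adjusted p = 2.6e-06), 3.57 ± 0.80 in iNZM (adjusted p = 0.0011) and 5.31 ± 0.80 in WT (adjusted p = 4.41e-06). Per kilobase of exon, Timp1 had the highest level of the 10 genes in acute skin, at 904 normalised reads in iNZM, 804 in NZM and 1210 in WT, against 47.6, 23.1 and 43.9 in unexposed skin.

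Timp1 was also higher after chronic UVB in NZM. Chronic NZM libraries held 105, 41.2, 61.3, 349 and 94.3, all above the highest unexposed value of 33.0 (2.80 ± 0.75, adjusted p = 0.00987). That call was lost without the libraries of a high hair follicle score, where the difference was 2.52 (adjusted p = 0.119). Chronic WT gave 1.93 ± 0.80 (adjusted p = 0.0569). Chronic iNZM libraries, at 5.94 to 56.9, overlapped with unexposed ones at 26.3 to 70.8 (-0.54 ± 0.80, adjusted p = 0.638).

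**Figure D2:**
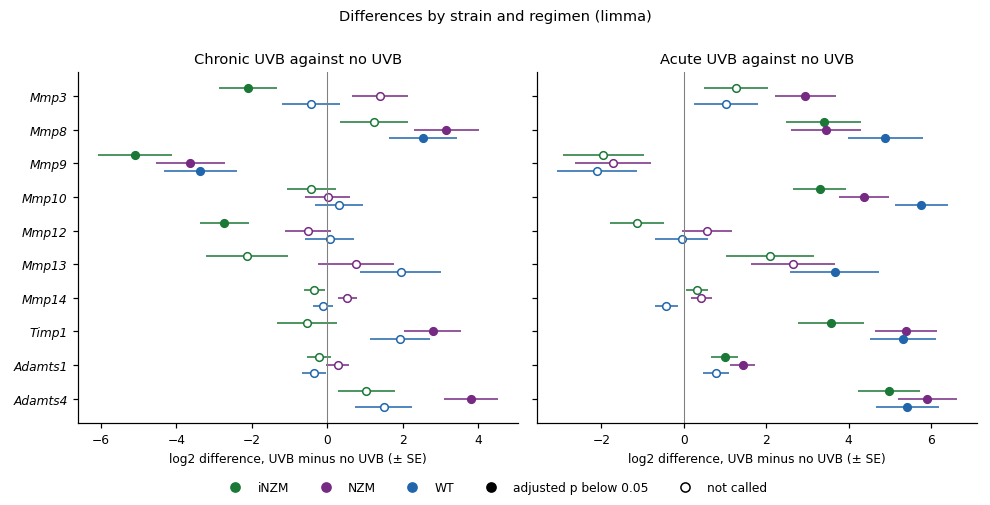
Log2 differences from limma for each gene, UVB minus no UVB, with bars of 1 SE, for chronic UVB on the left and acute UVB on the right in iNZM, NZM and WT. Filled points mark an adjusted p below 0.05; after acute UVB Mmp8, Mmp10, Timp1 and Adamts4 are filled in all 3 strains, and after chronic UVB Mmp9 is filled and negative in all 3.

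Set against acutely exposed skin, chronically exposed skin had lower levels of 3 to 7 of the 10 genes, depending on the strain, and a higher level of none by the test. In NZM 3 of the 10 were called lower and 0 higher, against 3.76% and 3.79% of all genes. In iNZM 7 were lower and 0 higher, against 4.45% and 3.81% of all genes. In WT 5 were lower and 0 higher, against 17.7% and 19.6% of all genes. Mmp10, Timp1 and Adamts1 were called in each strain. Timp1 differed by -4.10 ± 0.75 in iNZM (adjusted p = 0.000603), -3.39 ± 0.75 in WT (adjusted p = 0.000554) and -2.59 ± 0.75 in NZM (adjusted p = 0.0278). The NZM value lost its call without acute library 1, 46 or 3 or chronic library 17, 18 or 56, with adjusted p of 0.051 to 0.0891. Cell type markers moved in this comparison as well. In WT, 6 of 8 keratinocyte genes were higher after chronic UVB, while 4 of 7 neutrophil, 4 of 8 fibroblast and 3 of 12 monocyte and macrophage genes were lower. In iNZM, 2 of 7 neutrophil, 2 of 8 fibroblast and 1 of 12 monocyte and macrophage genes were lower, and 2 keratinocyte genes were higher and 1 lower. In NZM 2 keratinocyte genes were likewise higher and 1 lower, and no gene of the other 3 lists passed limma's test, with 1 neutrophil gene at an unadjusted p below 0.05. Their part in the protease and Timp1 differences was not tested.

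Adamts1 differed between chronic and acute UVB by -1.16 ± 0.30 in NZM (adjusted p = 0.0135), -1.21 ± 0.30 in iNZM (adjusted p = 0.00936) and -1.14 ± 0.30 in WT (adjusted p = 0.00295). Without acute library 1 or chronic library 18 the adjusted p in NZM was 0.0527 or 0.0502, and without acute library 10 it was 0.0553 in iNZM. Adamts4 differed by -3.94 ± 0.71 in iNZM (adjusted p = 0.000553), -3.94 ± 0.71 in WT (adjusted p = 4.45e-05) and -2.10 ± 0.71 in NZM (adjusted p = 0.0637). In iNZM, Mmp13 (-4.22 ± 1.01, adjusted p = 0.0072), Mmp3 (-3.37 ± 0.74, adjusted p = 0.00319) and Mmp9 (-3.14 ± 0.92, adjusted p = 0.0274) were lower as well. The Mmp9 value lost its call without acute library 9 (0.0913), acute library 10 (0.137) or chronic library 57 (0.147). When only the compared groups were fitted, limma called 0 of the 10 in iNZM, although 7 had an unadjusted p below 0.05, and on all groups edgeR called 8 and DESeq2 9. In WT, Mmp8 was lower, with a difference of -2.36 ± 0.85 (adjusted p = 0.0272), which was lost without acute library 52 (0.0947), chronic library 27 (0.0801) or chronic library 59 (0.0508).

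Before any exposure, 2 of the genes were lower in NZM than in WT and 0 were higher, against 7.49% and 7.47% of all genes. Mmp3 held 132 ± 17.3 normalised reads (SD, n = 5) in unexposed NZM, against 879 ± 576 (n = 4) in unexposed WT. The difference was -2.55 ± 0.78 (adjusted p = 0.0223), with no overlap, and adjusted p = 0.113 without WT library 45, the highest at 1739. Adamts1 held 838 ± 95.3 in NZM, against 1822 ± 789 in WT (-1.03 ± 0.32, adjusted p = 0.0246), with adjusted p of 0.056 without NZM library 34, 0.137 without WT library 44 and 0.0708 without WT library 45. Fibroblast markers, all 8 present, summed to 15961 to 53307 in unexposed NZM libraries, against 61080 to 279216 in unexposed WT. Monocyte and macrophage markers summed to 4814 to 7529, against 12355 to 90859. Neither pair of ranges overlapped, and their part in the Mmp3 and Adamts1 differences was not tested.

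After UVB limma called none of the 10 between NZM and WT. After acute UVB, where 7.96% of all genes were called higher and 5.08% lower in NZM, 0 of the 10 were called, 2 had an unadjusted p below 0.05 (Mmp8 and Adamts4) and edgeR and DESeq2 called 0. After chronic UVB, with 4.29% called higher and 3.59% lower among all genes, 0 of the 10 were called, 1 had an unadjusted p below 0.05 (Mmp12) and edgeR and DESeq2 called 0. The acute values were -1.86 ± 0.85 for Mmp8 (adjusted p = 0.157) and -1.48 ± 0.71 for Adamts4 (adjusted p = 0.183). The chronic value of Mmp12 was -1.34 ± 0.61 (adjusted p = 0.194).

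Between iNZM and NZM limma called none of the genes under any regimen, and DESeq2 called Mmp3 after chronic UVB. Limma called 0 of the 10 without UVB, against 0.0313% of all genes in either direction, and 1 (Mmp12) had an unadjusted p below 0.05. After acute UVB it called 0, against 0.224% of all genes, and 0 had an unadjusted p below 0.05. In both of these edgeR and DESeq2 also called 0. After chronic UVB it called 0, against 0.428% of all genes, while 5 had an unadjusted p below 0.05, edgeR called 0 and DESeq2 called 1 (Mmp3, adjusted p = 0.0379). The 5 genes were Mmp3, Mmp8, Mmp13, Timp1 and Adamts4, each lower in iNZM. Mmp3 had the smallest adjusted p, 0.0707, at -2.78 ± 0.74, with 34.1, 90.6, 189, 8.32 and 58.4 normalised reads in chronic iNZM, against 410, 151, 750, 350 and 317 in chronic NZM. Only iNZM library 23 reached into the NZM range. For Adamts4 the ranges did not overlap, at 2.97 to 52.3 in chronic iNZM, against 54.6 to 116 in chronic NZM (-1.90 ± 0.71, adjusted p = 0.271). Monocyte and macrophage markers summed to 859 to 6727 in chronic iNZM, against 4957 to 31166 in chronic NZM. Fibroblast markers summed to 4693 to 59618, against 57858 to 108443. The part of these cell types in the differences was not tested.

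The test of the difference between the UVB responses themselves called 0 of the 10 in each of 4 comparisons. For the acute response, NZM against WT called 0.115% of all genes and iNZM against NZM called 0.00522%. For the chronic response, NZM against WT called 7.58% of all genes and iNZM against NZM called 0%. Among the 10 genes, 1 (Mmp14) and 0 had an unadjusted p below 0.05 in the acute comparisons, and 1 (Adamts4) and 5 (Mmp3, Mmp12, Mmp14, Timp1 and Adamts4) in the chronic ones. EdgeR and DESeq2 called 0 in all 4. The differences farthest from 0 were both in the chronic response of iNZM against NZM, -3.50 ± 1.07 for Mmp3 (adjusted p = 0.116) and -3.34 ± 1.10 for Timp1 (adjusted p = 0.155). Standard errors of these differences ran from 0.37 for Mmp14 to 1.48 for Mmp13 on the log2 scale, which limits what could be detected.

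The acute libraries of a strain differed widely, and the same libraries stood high for many of the genes. Acute iNZM libraries 9 and 10 were the highest of their 5 for 5 genes each, and library 6 was the lowest for 8. In acute NZM, library 1 was the highest for 6 genes and library 5 the lowest for 7. In acute WT, library 52 was the highest for 7. The monocyte and macrophage markers summed to 19147 and 49210 in acute iNZM libraries 9 and 10, and to 1246, 3936 and 3724 in libraries 6, 48 and 49. Neutrophil markers summed to 2251 and 4417 in 9 and 10, and to 225, 601 and 431 in 6, 48 and 49. In unexposed iNZM the monocyte and macrophage sum was 10029 to 30590 and the neutrophil sum 1774 to 2124. The neutrophil sum includes Il1r2, called lower in acute iNZM, while 3 other neutrophil genes were called higher. Acute libraries 6 and 49 of iNZM and 5 of NZM also had a hair follicle score above 5. The part of these cell types in the spread was not tested.

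**Figure D3:**
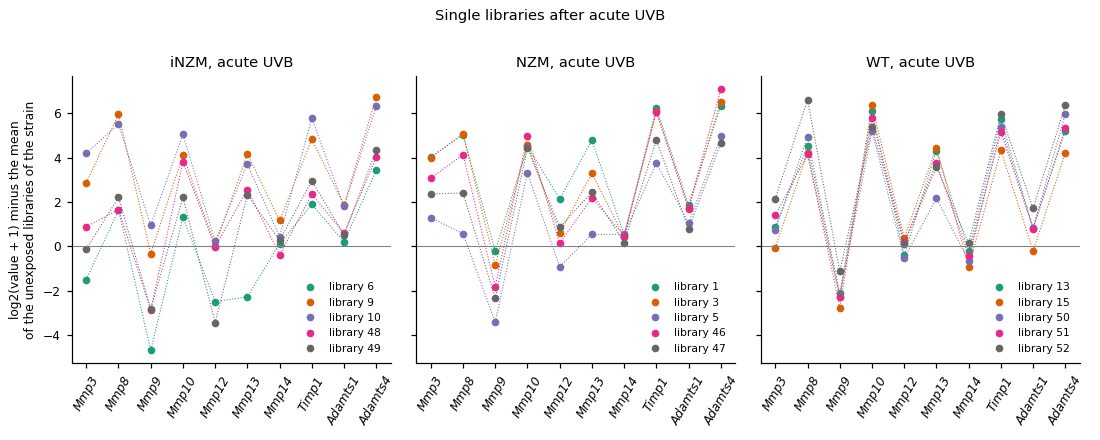
Log2(value + 1) of each acute library minus the mean of the unexposed libraries of its strain, for the 10 genes, with 1 colour per library in iNZM, NZM and WT. In iNZM, libraries 9 and 10 lie above library 6 for every gene, whereas Mmp8, Mmp10, Timp1 and Adamts4 lie above 0 in all 15 libraries.

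Other genes of matrix turnover, chosen by function, were called at shares to be read against those over all genes, 10.4% to 12.8% higher and 10.7% to 12.4% lower after acute UVB. Of 11 further matrix metalloproteinases tested, 2 rose and 2 fell in NZM, 1 rose and 2 fell in iNZM, and 1 rose and 1 fell in WT, which is near the share over all genes. Mmp1b, a collagenase-like gene of the chromosome 9 cluster, rose by 4.28 ± 0.67 in NZM (adjusted p = 1.29e-05), 2.45 ± 0.71 in iNZM (adjusted p = 0.00961) and 1.97 ± 0.71 in WT (adjusted p = 0.04). Mmp28, the epidermal metalloproteinase epilysin, fell in each strain, with differences of -2.48 ± 0.47 in NZM, -3.31 ± 0.50 in iNZM and -2.40 ± 0.50 in WT. Of 16 further ADAMTS genes, 3 rose and 1 fell in NZM, 3 rose and 1 fell in iNZM, and 2 rose and 2 fell in WT. Adamts9 rose by 1.29 ± 0.33, 0.99 ± 0.35 and 2.20 ± 0.35 in NZM, iNZM and WT, and Adamts14, a procollagen-processing protease, fell with differences of -2.22 ± 0.30, -1.52 ± 0.32 and -2.16 ± 0.32 in the same order of strains. Of 7 plasminogen activation genes, 2 rose in NZM, 1 in iNZM and 2 in WT, where 1 also fell. Plaur, the urokinase receptor, rose in each, by 2.90 ± 0.56 in NZM, 1.92 ± 0.59 in iNZM and 3.03 ± 0.59 in WT. After chronic UVB, 6 of these ADAMTS genes rose and 1 fell in NZM, 0 and 3 in iNZM, and 2 and 2 in WT. Of the metalloproteinases 2 rose and 3 fell in NZM, 0 and 5 in iNZM, and 0 and 3 in WT. Of the plasminogen activation genes 0 rose, and 1, 2 and 1 fell. Over all genes 9.2%, 13.1% and 18.4% were called higher and 9.78%, 15.7% and 16.8% lower.

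None of the 5 other inhibitors tested (Timp2, Timp3, Timp4, Reck and Rarres1) was called higher after either regimen in any strain. After acute UVB, Timp4 fell in iNZM (-2.21 ± 0.80, adjusted p = 0.0388), while limma called 0 in NZM and in WT, where 0 and 2 had an unadjusted p below 0.05. After chronic UVB 4 fell in WT and 2 in iNZM, against 16.8% and 15.7% of all genes. In NZM 0 were called, against 9.78% of all genes called lower, and 0 had an unadjusted p below 0.05. In WT the differences were -1.70 ± 0.36 for Timp2 (adjusted p = 0.000402), -1.27 ± 0.26 for Timp3 (adjusted p = 0.000357), -2.90 ± 0.80 for Timp4 (adjusted p = 0.0049) and -1.70 ± 0.51 for Reck. Of 12 substrate genes, acute UVB raised 3 and lowered 2 in NZM, and raised 3 and lowered 1 in iNZM. In WT 0 of the 12 were called, with 4 at an unadjusted p below 0.05. Vcan, which encodes the versican cut by ADAMTS proteases, rose by 2.83 ± 0.75 in NZM (adjusted p = 0.0055) and 2.39 ± 0.79 in iNZM. After chronic UVB 7 substrate genes rose and 2 fell in NZM, against 9.2% and 9.78% of all genes. In iNZM 1 rose and 5 fell, against 13.1% and 15.7% of all genes. In WT 0 rose and 3 fell, against 18.4% and 16.8% of all genes. Without UVB, 5 of the 12 were lower in NZM than in WT, against 7.49% of all genes. Among them were Col1a2 (-2.71 ± 0.63) and Col1a1 (-2.49 ± 0.66), which encode the chains of type I collagen. Col1a1, Col1a2, Col3a1 and Dcn are also fibroblast markers here, so the substrate and fibroblast lists are not separate observations.

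The genes most like each protease over the 9 groups were taken by the smallest root mean square distance between centred group means of log2(value + 1), for genes whose means spanned at least 2 log2 units. Mmp3 lay nearest to Ms4a6d (0.269) and Ms4a6c (0.352), and Mmp8 to Lilrb4a, an inhibitory receptor of myeloid cells (0.411), and Hpx, the haem-binding protein hemopexin (0.433). Mmp10 lay nearest to Nppb, a natriuretic peptide gene (0.458), and Fosl1, an AP-1 subunit (0.534). Timp1 and Adamts4 were among each other's 2 nearest genes (0.566), with Hpx nearest to Timp1 (0.553) and Clec4d, a myeloid lectin, second for Adamts4 (0.619). Mmp13 lay nearest to Slpi, a leukocyte protease inhibitor (0.484), and Bcl3, an NF-kB cofactor (0.583). Mmp12 lay nearest to Nfkbie, an NF-kB inhibitor (0.326), and a transcript named RP24-548A15.1 (0.395). Mmp9 had no close neighbour among the genes searched, the nearest being Mucl1 (0.728) and the muscle myosin gene Myh1 (0.77). Mmp14 and Adamts1 spanned less than 2 log2 units and were not ranked.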

How the data were processed

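Poly-A RNA of 43 back-skin samples was sequenced in paired reads. Per the submitters' processing notes, the tools were STAR, HTSeq and DESeq2 and the build mm10, with no version, annotation, filter or strand setting given in the sources used here. The deposited table holds 1 signal per gene and sample, a read count that the authors divided by a size factor per sample, called a normalised read count here. Whole multiples of a step gave back reads for 100% of values (tolerance 0.01). Size factors ran from 0.6735 to 1.75.

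The 10 genes and all lists were chosen with earlier results of these data known. Groups came from the strain and UVB regimen in the labels. The filter kept 19170 genes, those that reached 10 in 4 or more samples. The test was limma-trend (limma 3.58.1, R 4.3.3), fitted to log2(value + 1) of all 43 samples with a mean for each group, and was two-sided, with Benjamini-Hochberg adjustment over 19170 genes and a threshold of 0.05. The pseudocount of 1 understates changes of genes with low values. There were 15 comparisons of 2 groups and 4 comparisons of responses. The tests were also run on simulated data, with the same dispersion for all genes and changes planted only in genes above low values. That run does not cover genes as low as Mmp8 and Mmp10 without UVB, or groups of wider spread. Replicates were compared in 82 pairs, and the lowest chi-square per gene was 15.8, so none was merged.

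Beside the 10 genes, the text names of each list up to 4 called genes with the smallest adjusted p in a comparison, and for each gene spanning 2 log2 units the 2 nearest patterns. Lists are given by counts and medians. The hair follicle score is the mean of centred log2 values over 24 genes. Alternatives were a pseudocount of 0.5 or 8, a filter at 50 or none, TMM scaling, only the compared groups, covariates for the hair follicle score or for a sample number from 46 up, leaving out the 9 libraries above a score of 5, leaving out each library in turn, and, on recovered reads, DESeq2 1.42.0 and edgeR 4.0.16. Exons came from GENCODE vM21; a further exon overlap is not reported here. Mmp3 and Mmp10 share 5 runs of 100 bases in their transcripts (0.294% and 0.308% of runs), and the other genes share none with each other. Python 3.11.15, pandas 2.3.3, numpy 2.4.6, scipy 1.17.1 and matplotlib 3.10.9 were used. Protein sequences were not analysed here.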

Additional observations from a re-analysis of the deposited data

Results flagged for a closer look

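In 9 of 90 combinations of gene and group, 1 library lay far from the others on the log2 scale by Dixon's ratio. Chance gives about 1 in 20 only for values that vary continuously. Where all other libraries are at 0, any reads are flagged, so the 9 cannot be read against that rate. Mmp10 accounted for 4, each a library with few reads among libraries at 0: chronic NZM library 54 at 3.79 normalised reads, unexposed NZM library 34 at 3.67, chronic iNZM library 22 at 5.81 and unexposed WT library 45 at 0.795. Chronic iNZM library 57 lay low for Mmp9, at 0 against 19.7 to 45.5 in the other 4, and for Timp1, at 5.94 against 31.2 to 56.9. Chronic iNZM library 23 lay high for Mmp12, at 53.3 against 7.28 to 9.29. Acute iNZM library 6 lay low for Mmp13, at 1.93 against 69.7 to 254. Chronic NZM library 17 lay low for Mmp8, at 6.27 against 22.4 to 31.2.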

How the results depend on the processing

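Of 42 called differences, 23 stayed past the threshold in every alternative run, and of 865 alternative values 814 did, 51 did not and 0 changed sign. The numbers of the 10 genes called moved as follows, and the cause was not tested. With only the compared groups fitted, 3 were called for acute UVB in iNZM, 0 for chronic against acute UVB in iNZM and 1 for the chronic response of iNZM against NZM. With a pseudocount of 8, 1 was called for chronic UVB in WT and 1 for NZM against WT after acute UVB. DESeq2 called 4 for chronic UVB in WT, 4 for NZM against WT without UVB and 1 for iNZM against NZM after chronic UVB. With a covariate for the hair follicle score, 1 was called for iNZM against NZM after chronic UVB and 1 in each chronic response comparison. Without the libraries above a score of 5, 2 were called for chronic UVB in NZM. Leaving out 1 library at a time gave 1 to 3 for chronic UVB in WT, 1 to 4 for chronic against acute UVB in NZM, 0 to 3 for NZM against WT without UVB, 0 to 1 for iNZM against NZM after chronic UVB and 0 to 1 for the chronic response of iNZM against NZM. In the last 2 the gene gained was Mmp3, without chronic iNZM library 23 in both and without chronic NZM library 17 in the first. Without the libraries above a score of 5, chronic against acute UVB in iNZM moved to -5.37 for Mmp9 and -6.16 for Adamts4. No paired analysis was possible because every sample number in the labels occurs once. Depth limits Mmp10 and Mmp8, with few or no reads per unexposed library.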
